A study of Mus musculus with 2 samples.

Results

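The matrix metalloproteases (MMPs), the ADAMTS and ADAMTS-like proteins and the tissue inhibitors of metalloproteases (TIMPs) were followed through the cell types of the superficial cervical lymphatic vessels of adult and aged mice. The genes were taken by symbol alone: every row named Mmp with a number, Adamts or Adamtsl with a number, or Timp with a number. This gave 46 of the 23521 genes in the tables, namely 4 TIMP, 18 MMP, 19 ADAMTS and 5 ADAMTS-like genes. Cells had been sorted by flow cytometry from the afferent lymphatics of the submandibular lymph nodes of FVB/N mice of the genotype Prox1-GFP, a green fluorescent reporter of the lymphatic transcription factor gene Prox1. The adult group was 12 weeks old and the aged group 93 weeks old, both groups carried the reporter, and the labels name no treatment. Cells of 6 mice went into 1 droplet library per age, so each age is 1 sample. There is therefore no replicate error and no test between ages, and every interval below covers counting error only.

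MMPs and ADAMTS proteases are zinc-dependent enzymes that are made as inactive proforms and cleave proteins of the extracellular matrix. TIMPs bind their active sites, and ADAMTS-like proteins share the ancillary domains of ADAMTS proteases but lack the catalytic domain. In lymphatic vessels these enzymes act on the matrix around the endothelium, on the proteoglycans of the vessel wall, and, through ADAMTS3, on the activation of the lymphatic growth factor VEGF-C.

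Of the 7308 barcodes of the adult table, 6977 (95.5%) were also listed in the aged table, where they carried a median of 0.506 times the UMIs (unique molecular identifiers, counts of captured mRNA molecules). These cells were counted once, as adult, which left 6992 aged cells and 14300 cells in all, with medians of 12087.5 and 11663.5 UMIs per cell. Cells fell into 4 classes by marker genes, with the 46 genes kept out of the clustering. The lymphatic endothelial-like class held 275 adult and 90 aged cells, the blood endothelial-like class 626 and 421, the smooth muscle-like class 368 and 264, and the fibroblast-like class 6039 and 6217. The summed level of the 8 lymphatic markers was 24477 and 20206 CPM (the UMIs of a gene scaled to a class total of 1000000 UMIs) in the lymphatic class, 11.8 and 8.5 CPM in the fibroblast-like class, and 1753 and 2157 CPM in the blood endothelial-like class, where 4 of them (Prox1, Flt4, Tbx1 and Nts) were found in 10% or more of the cells. The smooth muscle-like class also held all 7 pericyte markers (1652 and 2168 CPM). Although the sort was for lymphatic vessels, lymphatic endothelial-like cells made up 3.76% of the adult and 1.29% of the aged library. The 8 fibroblast markers stood at a median of 0.973% and 1.05% of their fibroblast-like level in lymphatic cells, and at 0.906% and 1.44% in blood endothelial-like cells. In smooth muscle-like cells they stood at 28.5% and 23.1%.

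A member counted as measured in a class when the libraries summed to 50 or more of its UMIs there and, in 1 of them or both, 10% or more of the cells held it. By this rule 25 members were measured in 1 class or more, 5 of them in all 4 classes, and 21 in none. The fibroblast-like class measured 23 members, the smooth muscle-like class 18, the blood endothelial-like class 11 and the lymphatic class 7. By the same rule 8730, 7752, 7225 and 6006 of all genes were measured in these classes, in that order. The rule depends on depth, so these counts are no measure of how many members a class uses. Adamts10 had 16.2 and 22.3 CPM in lymphatic cells and was not measured there. It was measured in fibroblast-like cells at 16.8 and 16.1 CPM. Of the 25 members, 15 had their highest level in fibroblast-like cells in both libraries. In both libraries 5 were highest in smooth muscle-like cells, 2 in blood endothelial-like cells and 0 in lymphatic cells. The other 3 (Timp3, Mmp16 and Adamts9) differed between the libraries. Mmp3, Mmp19, Mmp27, Mmp16, Adamtsl3 and Adamtsl4 were measured in fibroblast-like cells alone, so the rule weights this count toward that class. The share of all genes highest in each class was not counted. The endothelial and smooth muscle-like classes were rich in Timp3 and a few ADAMTS proteases, while Timp2 and 6 of the 8 measured MMPs were highest in the fibroblast-like class of both libraries.

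**Figure D1:**
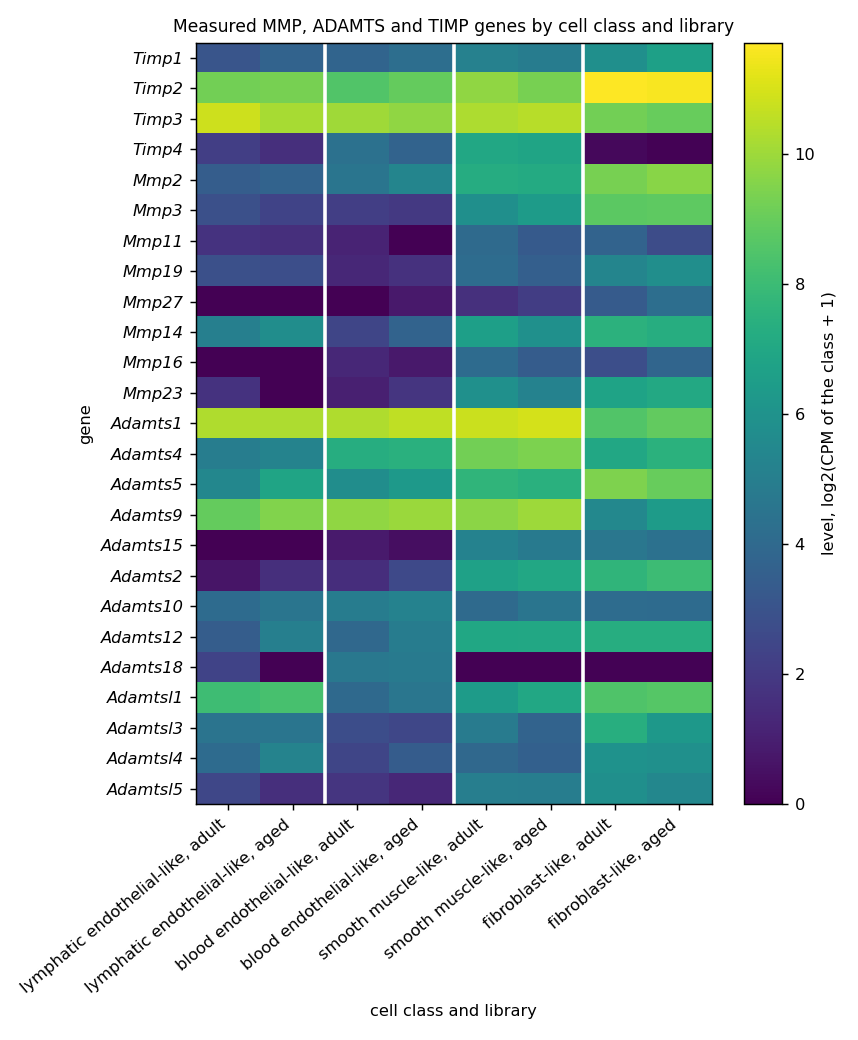
Level of the 25 measured genes, one row each, in the 4 cell classes of the adult and aged libraries, as log2 of CPM plus 1 (colour scale). Timp2, Mmp2 and Mmp3 are brightest in the fibroblast-like columns, while Timp3, Adamts1 and Adamts9 are bright in the endothelial and smooth muscle-like columns.

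Summed by family, the inhibitors came to 2409 CPM in adult and 1813 CPM in aged lymphatic cells, 1459 and 1404 CPM in blood endothelial-like cells, 2257 and 2193 CPM in smooth muscle-like cells, and 4022 and 3714 CPM in fibroblast-like cells. The 18 MMPs together came to 76.4 and 97.1 CPM in lymphatic cells against 1429 and 1622 CPM in fibroblast-like cells. The 19 ADAMTS proteases ran the other way and were highest in smooth muscle-like cells, at 3723 and 4186 CPM, and lowest in fibroblast-like cells, at 1681 and 1753 CPM. In lymphatic cells they summed to 1879 and 2175 CPM, of which Adamts1 gave 67.7% and 56.5% of the UMIs.

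Among the inhibitors, Timp2, which also takes part in the activation of pro-MMP2 at the cell surface, had its highest level in fibroblast-like cells, where the adult library gave 3362 CPM (95% interval 3350 to 3375) and the aged one 3112 CPM (3099 to 3124). Its level was 872 and 634 CPM in smooth muscle-like cells and 593 and 627 CPM in lymphatic cells. Blood endothelial-like cells were lowest in both libraries, at 375 and 493 CPM. The order of smooth muscle-like cells depended on cells holding a UMI of the fibroblast marker Pdgfra. Without such cells, smooth muscle-like cells had 367 and 316 CPM. Lymphatic cells then had 592 and 629 CPM, and blood endothelial-like cells 378 and 485 CPM. Timp3, which binds to the matrix and also inhibits ADAM and ADAMTS proteases, was lowest in fibroblast-like cells, at 602 and 501 CPM. Its adult level was highest in lymphatic cells at 1805 CPM (1743 to 1870), whereas in the aged library smooth muscle-like cells were highest at 1416 CPM (1361 to 1473) and lymphatic cells had 1172 CPM (1078 to 1271).

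Timp4 was a smooth muscle gene in these tables. Its level was 130 CPM in adult and 113 CPM in aged smooth muscle-like cells, 19.4 and 12.3 CPM in blood endothelial-like cells, and 14 and 3 UMIs in all in fibroblast-like cells. Within smooth muscle its level was 253 and 161 CPM in the cluster led by Nrip2, Pln and Myh11. In the cluster led by Actg2 and Grem1 it was 17.1 and 5.49 CPM. At a clustering resolution of 2, most of the cluster led by Actg2 and Grem1 split into pericyte-like clusters of 61 and 50 adult and 39 and 22 aged cells. Timp1, a secreted inhibitor induced in injury and inflammation, was highest in fibroblast-like cells, at 56.9 and 101 CPM, and was 7.52 and 12.1 CPM in lymphatic cells, where it was not measured by the rule.

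Of the secreted MMPs, the gelatinase gene Mmp2 had 630 and 793 CPM in fibroblast-like cells and 9.84 and 12.1 CPM in lymphatic cells, which is 1.56% and 1.53% of the fibroblast-like level. Mmp3, stromelysin-1, which cleaves many matrix proteins and activates other pro-MMPs, had 436 and 442 CPM in fibroblast-like cells and 6.37 and 4.05 CPM in lymphatic cells, 1.46% and 0.914% of the fibroblast-like level. The fibroblast markers ranged from 0.330% to 1.21% of their fibroblast-like level in adult lymphatic cells, just below these shares, and from 0.484% to 2.43% in aged ones, around them. Mmp9, the other gelatinase and a gene of neutrophils and macrophages, had 27 UMIs in all, every one of them in fibroblast-like cells. That class held 81399800 of all 90875406 adult and 78474973 of all 83509101 aged UMIs, so the count does not place Mmp9 in a class. The neutrophil markers summed to at most 0.4 CPM in any class.

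The stromelysin and collagenase genes lie side by side on mouse chromosome 9, in the RefSeq order Mmp1b, Mmp3, Mmp1a, Mmp10, Mmp27 among those with a row in the tables. The number of UMIs captured over both libraries was 70541 for Mmp3, 2178 for Mmp27, 21 for Mmp1a, 17 for Mmp10 and 2 for Mmp1b, counts that also depend on how well the 3′ end of each gene is captured. Their promoters are shown because genes with the same motif letters at the start site gave either very many UMIs or at most 21. RefSeq windows from 250 bases before to 50 after each start (build GRCm38.p6) were found for 31 of the 46 genes, as 32 windows. The sequences run 5′ to 3′ on the strand of the gene, and capitals mark the AP-1 motif TGANTCA and the TATA motif TATAAA, which do not overlap in these windows and were both searched on both strands. The window of Mmp3 is chr9:7445572-7445871 (plus strand), that of Mmp1a chr9:7463891-7464190 (plus strand), that of Mmp10 chr9:7502092-7502391 (plus strand) and that of Mmp27 chr9:7571146-7571445 (plus strand).
Mmp3: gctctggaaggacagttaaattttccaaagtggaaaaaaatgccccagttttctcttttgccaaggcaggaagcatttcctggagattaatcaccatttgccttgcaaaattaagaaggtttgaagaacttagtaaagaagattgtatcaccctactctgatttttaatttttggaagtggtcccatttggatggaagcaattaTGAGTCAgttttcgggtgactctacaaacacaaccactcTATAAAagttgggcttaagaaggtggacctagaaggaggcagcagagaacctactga
Mmp1a: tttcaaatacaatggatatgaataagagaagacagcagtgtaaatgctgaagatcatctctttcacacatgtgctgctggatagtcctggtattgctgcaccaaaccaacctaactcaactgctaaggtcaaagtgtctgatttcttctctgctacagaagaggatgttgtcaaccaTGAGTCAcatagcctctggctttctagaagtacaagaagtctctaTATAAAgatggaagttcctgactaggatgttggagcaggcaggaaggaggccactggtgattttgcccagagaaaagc
Mmp10: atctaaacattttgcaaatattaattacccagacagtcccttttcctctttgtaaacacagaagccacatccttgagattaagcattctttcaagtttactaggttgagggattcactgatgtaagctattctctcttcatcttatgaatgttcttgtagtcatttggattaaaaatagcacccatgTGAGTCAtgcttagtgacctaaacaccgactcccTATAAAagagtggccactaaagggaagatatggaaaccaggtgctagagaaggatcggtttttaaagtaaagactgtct
Mmp27: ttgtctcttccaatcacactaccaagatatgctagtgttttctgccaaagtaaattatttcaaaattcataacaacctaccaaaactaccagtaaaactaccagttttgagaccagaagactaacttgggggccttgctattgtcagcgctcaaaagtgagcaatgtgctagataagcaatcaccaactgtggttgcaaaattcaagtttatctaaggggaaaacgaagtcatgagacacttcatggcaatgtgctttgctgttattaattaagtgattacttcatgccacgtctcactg

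TGANTCA was present in 4 of the 32 windows, those of Mmp1a, Mmp1b, Mmp3 and Mmp10, and in 7.81% of all 32851 promoter windows. In these windows its letters were TGAGTCA, and it began 46 bases before the start of Mmp3, 73 before Mmp1a, 63 before Mmp10 and 93 before Mmp1b. TATAAA was present in the same 4 windows, in 7 member windows altogether and in 13.6% of all windows. The window of Mmp27 held neither run of letters. A match is a run of letters and no evidence of binding. Among these neighbouring chromosome 9 genes, those with both runs included the one with the most UMIs and the ones with the fewest.

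Mmp3 was uneven within the fibroblast-like class, and so was Timp1. Of 13 fibroblast-like clusters, 11 held 50 or more cells in each library. Timp1 ranged from 6.19 to 270 CPM over these clusters in the adult library and from 7.60 to 399 CPM in the aged library, with the cluster led by Cpz, Rbfox3 and Acp5 highest in both. Mmp3 ranged from 92.3 to 1383 CPM in the adult library, and from 67.7 to 953 CPM in the aged library. Adamts4, a protease of the proteoglycans aggrecan and versican, ranged from 15.2 to 397 CPM and from 18.0 to 465 CPM, with the cluster led by Myoc, Frem1 and Trhde highest in both. Timp2 varied much less, by 2.43-fold and 2.10-fold between its highest and lowest cluster.

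These genes shared an order over the clusters. Over the 11 clusters, Spearman's rho between Timp1 and Mmp3 was 0.90 in the adult and 0.85 in the aged library, and between Timp1 and Adamts4 it was 0.85 and 0.84. Adamts5, the other main aggrecanase, ran in the opposite order, with a rho to Timp1 of -0.91 and -0.87 and to Mmp3 of -0.85 and -0.76. These are descriptions of clusters that share a library and its depth, and the pairs were chosen after their values were seen.

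**Figure D2:**
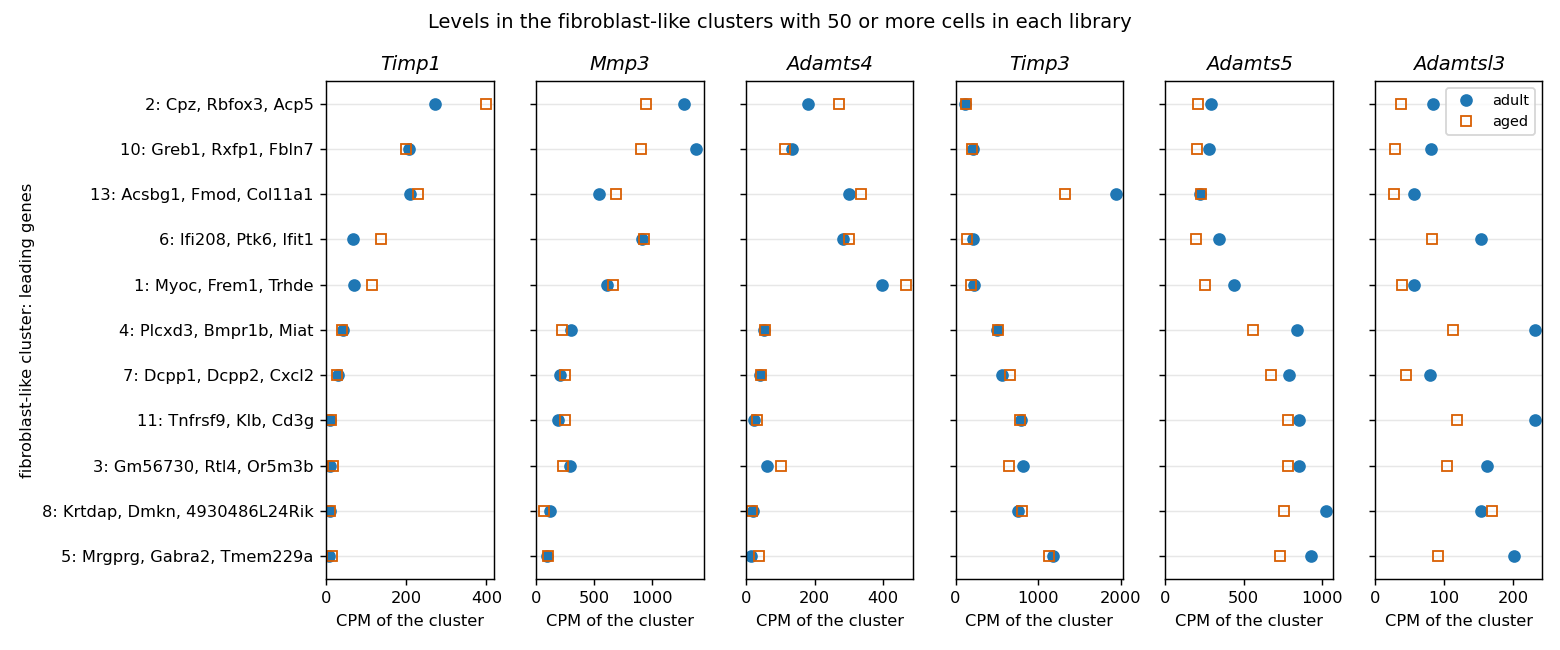
CPM of 6 genes (one panel each, linear axis) in the 11 fibroblast-like clusters, named by number and leading genes and ordered by Timp1, with adult libraries as filled circles and aged as open squares. The upper 5 clusters are high in Timp1, Mmp3 and Adamts4 and low in Adamts5, and the lower 6 the reverse, in both libraries.

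The clusters fell into a set of 5 (led by Cpz, Greb1, Acsbg1, Ifi208 and Myoc) and the other 6. In the adult library the set of 5 had 67.2 to 270 CPM of Timp1 and the other 6 had 6.19 to 40.1 CPM, and in the aged library they had 114 to 399 and 7.60 to 38.0 CPM. Adamts5 ran from 220 to 439 CPM in the set of 5 and from 785 to 1025 CPM in the other 6 in the adult library, and from 198 to 255 and from 560 to 783 CPM in the aged library. The ranges of the sets did not overlap for these genes, for Mmp3 or for Adamts4 in either library. The share of all genes whose ranges also do not overlap between these sets was not counted. The sets were drawn with these values in view, so the gaps are no support for the split. The ranges of Timp2, Mmp2 and Adamtsl3 overlapped in both libraries, and those of Mmp19 and Mmp14 in the adult one. Timp3 did not follow the sets, because the cluster led by Acsbg1, Fmod and Col11a1 had the highest Timp3 (1939 and 1330 CPM) while the cluster led by Cpz had the lowest (115 and 129 CPM).

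Of the remaining secreted MMPs, Mmp19 had 38.9 and 55.0 CPM in fibroblast-like cells and at most 16.5 CPM elsewhere. Mmp11, stromelysin-3, which furin-type proteases activate inside the cell, had 15.5 and 8.98 CPM in smooth muscle-like and 12.3 and 5.67 CPM in fibroblast-like cells. Mmp27 had 9.41 and 17.8 CPM in fibroblast-like cells and was at 0 UMIs in lymphatic cells of both libraries, where 3 UMIs would be 1.74 and 6.07 CPM. Mmp28, epilysin, was not measured by the rule, but its few UMIs lay mostly outside the fibroblast-like class, with 43 and 39 UMIs in blood endothelial-like cells, 19 and 6 in lymphatic cells, and 34 and 23 in the far more numerous fibroblast-like cells.

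Of the membrane-anchored MMPs, Mmp14 is the protease that cleaves fibrillar collagen and activates pro-MMP2. It had 182 and 157 CPM in fibroblast-like cells, 98.2 and 57.3 CPM in smooth muscle-like cells and 32.4 and 52.6 CPM in lymphatic cells. Mmp14 was the only MMP measured in lymphatic cells, at 17.8% and 33.5% of its fibroblast-like level, a larger share than that of any of the 8 fibroblast markers there. Blood endothelial-like cells held less of it, 4.54 and 12.3 CPM. Mmp23, whose protein furin-type proteases release from the membrane, had 110 and 135 CPM in fibroblast-like cells. Mmp15, Mmp17, Mmp24 and Mmp25 were measured in no class.

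Of the 7 ADAMTS proteases of proteoglycans, Adamts8 and Adamts20 were measured in no class, and Adamts1 and Adamts9 were measured in all 4. Adamts1 had 1272 and 1228 CPM in lymphatic cells, 1272 and 1568 CPM in blood endothelial-like cells, 1756 and 1964 CPM in smooth muscle-like cells, and 365 and 483 CPM in fibroblast-like cells. Adamts9, which cleaves versican and aggrecan, had 487 and 732 CPM in lymphatic cells, 879 and 977 CPM in blood endothelial-like cells, 810 and 1010 CPM in smooth muscle-like cells, and 42.8 and 83.9 CPM in fibroblast-like cells. Blood endothelial-like and smooth muscle-like cells exchanged the first place for Adamts9 between the libraries, and their aged intervals (941 to 1015 and 963 to 1057 CPM) overlapped. Adamts4 had 604 and 681 CPM in smooth muscle-like cells, 3.82-fold and 3.85-fold the level of the next class. Adamts5 alone of the measured aggrecanases was a fibroblast gene, at 697 and 516 CPM, with 42.3 and 113 CPM in lymphatic cells.

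The lymphatic class held 2 clusters that differed in these genes. The larger, led by Spp1, Prox1 and the reporter eGFP (175 adult and 70 aged cells), had 1803 and 1473 CPM of Adamts1 and 695 and 858 CPM of Adamts9. The smaller, led by Ccl21a, Reln and Lyve1, genes of lymphatic capillaries (100 and 20 cells), had 109 and 12.1 CPM of Adamts1 and 31.4 and 109 CPM of Adamts9. Timp3 was the reverse: 3217 and 2359 CPM in the cluster led by Ccl21a and 1161 and 933 CPM in the cluster led by Spp1. The aged values of the cluster led by Ccl21a rest on 20 cells, with 195 UMIs of Timp3, 9 of Adamts9 and 1 of Adamts1. Adamts9 also differed among blood endothelial-like clusters, with 1315 and 2749 CPM in the cluster led by Rbp7 and Cd300lg, genes of capillary endothelium, and 725 and 556 CPM in the cluster led by Vwf.

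Among the procollagen N-proteinases, which trim fibrillar procollagens, Adamts2 had 204 and 257 CPM in fibroblast-like cells, 105 and 128 CPM in smooth muscle-like cells and 1 UMI in the lymphatic cells of each library. Adamts14 and Adamts3 were measured in no class, with 1227 and 965 UMIs in all. Adamts3, whose protease activates VEGF-C on the cofactor CCBE1, had 8 UMIs in adult and 0 in aged lymphatic cells, and 61 and 11 UMIs in smooth muscle-like cells. Its highest level was in smooth muscle-like cells in the adult library and in blood endothelial-like cells in the aged one. Its partners were measured: Ccbe1 had 34.9 and 18.8 CPM in fibroblast-like cells, and Vegfc had 20.8 and 103 CPM in lymphatic cells, from 36 and 51 UMIs. In blood endothelial-like cells Vegfc was higher than that in both libraries, at 94.9 and 105 CPM, from 460 and 290 UMIs.

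Of the other ADAMTS genes, Adamts18 was measured in 1 class. Its level was 24.6 and 27.2 CPM in blood endothelial-like cells, it had 0 UMIs in smooth muscle-like cells of both libraries, 7 and 0 UMIs in lymphatic cells, and 3 and 4 UMIs in fibroblast-like cells. Adamts10, known for its link to fibrillin microfibrils, was also highest in blood endothelial-like cells, at 29.3 and 35.9 CPM, but no class was below 15.5 CPM. Adamts12 had 157 and 159 CPM in fibroblast-like and 124 and 129 CPM in smooth muscle-like cells. Adamts15 had 35.1 and 27.5 CPM in smooth muscle-like and 24.3 and 19.7 CPM in fibroblast-like cells, and no UMI in lymphatic cells. Adamts16 and Adamts19 were fibroblast genes below the rule, at 14.2 and 10.6 CPM and at 10.1 and 12.4 CPM.

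The 4 measured ADAMTS-like genes were highest in fibroblast-like cells of both libraries. Adamtsl1, which codes for the matrix protein punctin, was also measured in lymphatic and smooth muscle-like cells. Adamtsl1 had 359 and 393 CPM in fibroblast-like cells, 270 and 312 CPM in lymphatic cells, and 15.1 and 23.2 CPM in blood endothelial-like cells. Lymphatic cells thus reached 75.1% and 79.3% of the fibroblast-like level, where the fibroblast markers reached 2.43% at most. These UMIs lay in few cells: 14 of 275 adult cells held 55.2% and 4 of 90 aged cells 33.1%. A single adult cell held 99 of 466 UMIs, and a single aged cell 19 of 154. In the lymphatic cluster led by Ccl21a the level was 318 and 641 CPM, and in the cluster led by Spp1 it was 248 and 245 CPM. Adamtsl3 had 161 and 75.7 CPM, Adamtsl4 61.3 and 57.9 CPM and Adamtsl5 56.7 and 42.1 CPM in fibroblast-like cells. Adamtsl5 was also measured in smooth muscle-like cells, at 54.7% and 70.7% of its fibroblast-like level, and aged lymphatic cells held 18 UMIs of Adamtsl4, 62.9% of that level. Adamtsl2, measured in no class, had 420 UMIs in all.

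Fibroblast genes were also found in smooth muscle-like cells, and the levels of several members moved with them. A UMI of Pdgfra, a fibroblast marker, was held by 53 of 368 adult (14.4%) and 27 of 264 aged (10.2%) smooth muscle-like cells. Without those cells the other 7 fibroblast markers stood at medians of 12.7% and 5.91% of their fibroblast-like level. Timp2 in smooth muscle went from 872 to 367 CPM in the adult and from 634 to 316 CPM in the aged library when those cells were left out. Mmp2 went from 152 to 62.8 CPM and from 144 to 19.3 CPM, and Mmp3 from 55.5 to 8.08 CPM and from 86.5 to 2.22 CPM. Adamts1 (2027 and 2256 CPM), Adamts4 (704 and 749 CPM), Adamts9 (949 and 1166 CPM), Timp3 (1332 and 1652 CPM) and Timp4 (161 and 139 CPM) were higher without them.

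**Figure D3:**
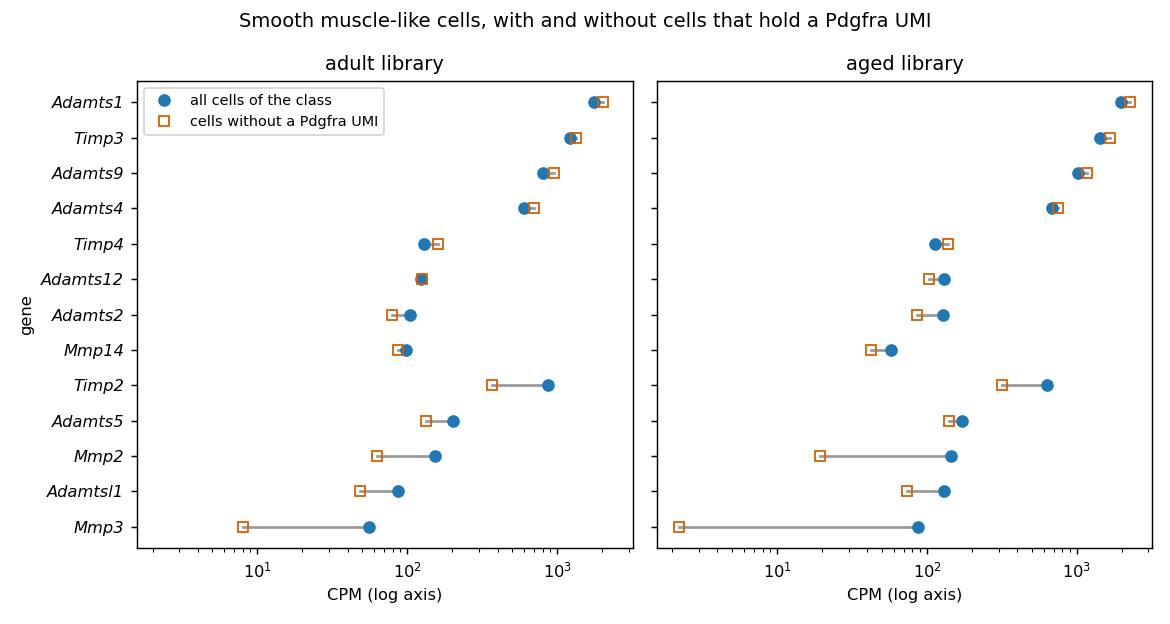
CPM (log axis) of 13 genes in smooth muscle-like cells of the adult (left) and aged (right) library, for all cells of the class (filled circles) and for cells without a Pdgfra UMI (open squares). Mmp3, Mmp2 and Timp2 drop to the left without those cells, while Adamts1, Adamts4, Adamts9, Timp3 and Timp4 move slightly to the right.

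The ages were set side by side in each class. Beside the members, the salivary acinar marker Dcpp1 was found in 10% or more of the cells of every class in the aged library alone. With the 3 other acinar markers it summed to 1.06 and 2323 CPM in fibroblast-like cells, to 0 and 440 in smooth muscle-like, 0 and 119 in lymphatic and 0 and 98.6 CPM in blood endothelial-like cells, and its part in the ratios was not tested. Ratios are the log2 of aged CPM plus 1 over adult CPM plus 1. In lymphatic cells 3 of 7 measured members were 1.5-fold or more higher in the aged library, where 8.31% of all 6006 measured genes were, and 1 of 7 was as much lower, where 9.21% of all genes were. Their median log2 ratio was 0.21, against 0.04 over all genes measured. In blood endothelial-like cells 2 of 11 were higher (4.57% of all 7225 genes) and 0 lower (4.96%), with medians of 0.30 and 0.03. In smooth muscle-like cells 1 of 18 was higher (3.68% of all 7752 genes) and 3 lower (9.84%), with medians of -0.07 and -0.05. In fibroblast-like cells 4 of 23 were higher (1.75% of all 8730 genes) and 2 lower (3.78%), with medians of 0.02 and -0.05.

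**Figure D4:**
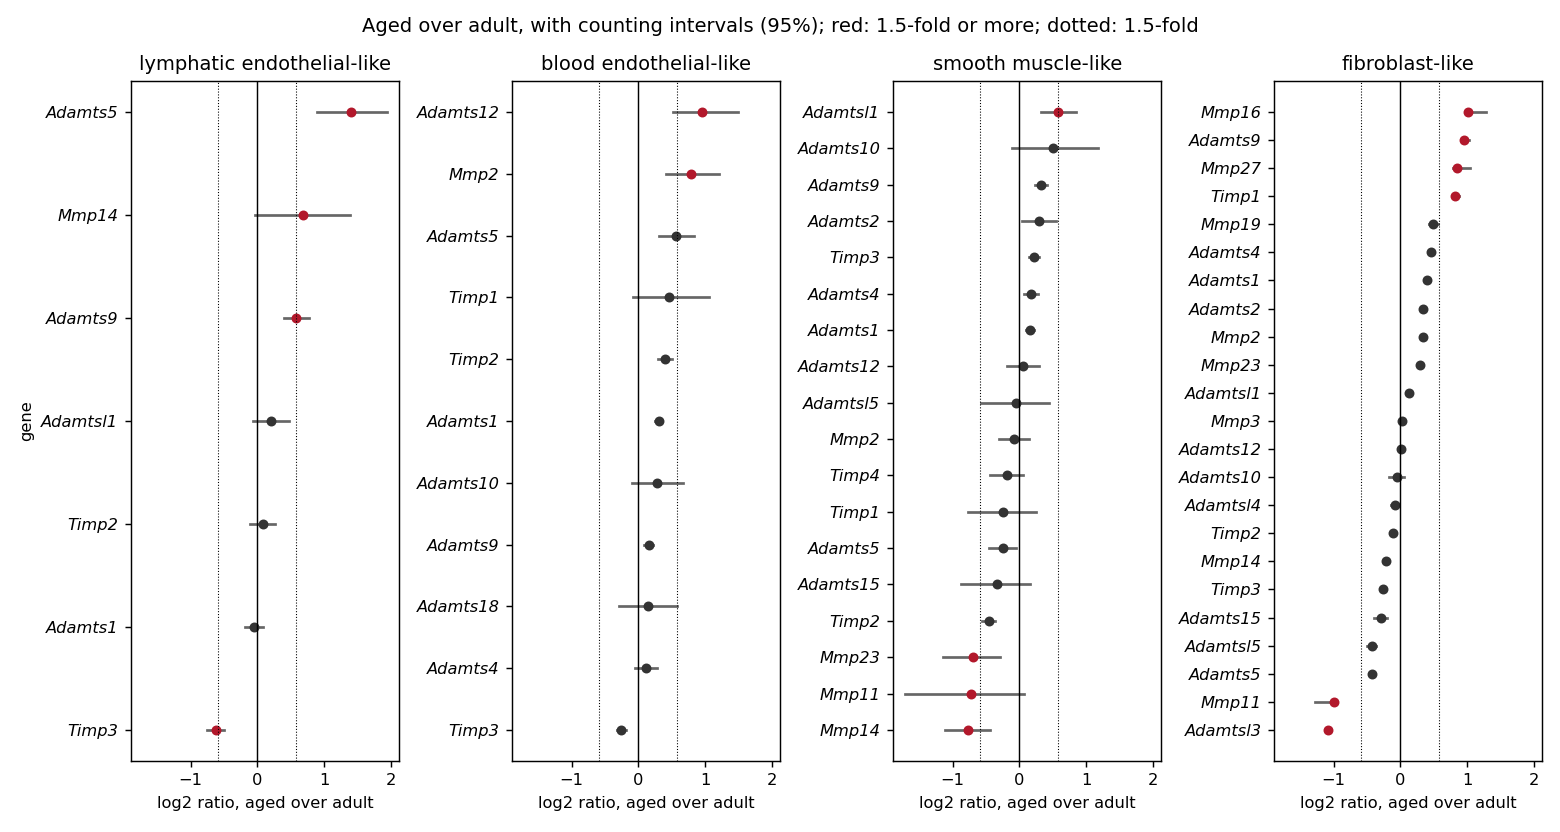
Log2 ratio of aged over adult for each measured gene in the 4 classes, with 95% counting intervals as bars, a solid line at no difference and dotted lines at 1.5-fold. Genes past 1.5-fold are in red: 4 in lymphatic, 2 in blood endothelial-like, 4 in smooth muscle-like and 6 in fibroblast-like cells.

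In lymphatic cells the inhibitor Timp3 was lower in the aged library, from 1805 to 1172 CPM, a log2 ratio of -0.62 (-0.75 to -0.50). It was lower in both clusters, and in female and male cells taken apart (-1.15 and -0.62), and the cluster with the higher level made up 100 of 275 adult but 20 of 90 aged cells. With the clusters weighted equally the ratio was -0.41. Adamts5 went from 42.3 to 113 CPM, a log2 ratio of 1.40 (0.89 to 1.95), on 73 and 56 UMIs. These UMIs lay in 24 of 275 and 19 of 90 cells, and 1 cell held 18 of the 73 and another 17 of the 56. Mmp14 went from 32.4 to 52.6 CPM, with an interval (-0.03 to 1.39) that includes no difference. Adamts9 was at 0.59 (0.41 to 0.77), at the edge of 1.5-fold, with opposite directions in female and male cells. For Adamts9, 1 adult cell held 117 of the 842 UMIs and 1 aged cell 81 of the 362. Adamts1, Adamtsl1 and Timp2 were between -0.05 and 0.21.

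In blood endothelial-like cells Mmp2 went from 22.5 to 39.5 CPM, a log2 ratio of 0.79 (0.42 to 1.21), and Adamts12 from 14.4 to 29.0 CPM, 0.96 (0.52 to 1.49). Both are low here and high in fibroblast-like cells. The 8 fibroblast markers summed to 399 adult and 604 aged CPM in this class, and to 24497 and 30960 CPM in fibroblast-like cells. Their part in these ratios was not tested. Of the 109 aged UMIs of Mmp2, 1 cell held 23. Without cells holding a Pdgfra UMI, Mmp2 went from 22.5 to 31.7 CPM, a log2 ratio of 0.48 and under 1.5-fold, and Adamts12 from 14.8 to 25.8 CPM, 0.76. In male cells alone the ratio of Mmp2 was 0.15 (-0.62 to 0.90). The abundant members of this class, Adamts1, Adamts9 and Timp3, were at 0.30, 0.15 and -0.25.

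In smooth muscle-like cells Mmp14 went from 98.2 to 57.3 CPM, a log2 ratio of -0.77 (-1.12 to -0.45), and was lower in female and male cells alike (-0.67 and -1.12). It was 86.5 and 42.2 CPM without the Pdgfra-positive cells. Mmp23 went from 57.9 to 35.4 CPM, -0.70 (-1.15 to -0.28), but was -0.11 with the clusters weighted equally. Mmp11 had 45 and 16 UMIs and a ratio of -0.73 (-1.71 to 0.06). Adamtsl1 was higher, from 86.5 to 130 CPM, 0.59 (0.33 to 0.85), at the edge of 1.5-fold. It was under 1.5-fold in male cells (0.29, -0.13 to 0.71), with clusters weighted equally (0.48) and with adult values from the copies in the aged table (0.49). The summed level of the fibroblast markers was 8077 CPM in adult and 7086 CPM in aged smooth muscle-like cells, and its part in these ratios was not tested.

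In fibroblast-like cells the counts were the deepest, and each ratio could also be read cluster by cluster. The cells lay in different clusters at each age: the cluster led by Gm56730 held 65 adult and 1399 aged cells, that led by Krtdap 831 and 106, that led by Prg4 207 and 8, and that led by Lgr5 3 and 159. Leaving out these 4 clusters moved 5 of the 6 ratios named here beyond their counting intervals, to between 0.65 and 0.97 for the 4 higher genes, -0.91 for Mmp11 and -1.25 for Adamtsl3. Timp1 went from 56.9 to 101 CPM, a log2 ratio of 0.81 (0.77 to 0.87), but was higher in 7 of 11 clusters and 0.37 with the clusters weighted equally. Mmp16, a membrane-type MMP, went from 6.03 to 13.2 CPM, 1.01 (0.97 to 1.28), and Mmp27 from 9.41 to 17.8 CPM, 0.85 (0.79 to 1.05). Both were higher in 11 of 11 clusters, although Mmp27 was at 0.27 in female and 1.08 in male cells. Mmp16 was 1.5-fold or more higher in 9 of the clusters and Mmp27 in 5. Their lowest cluster ratios were 0.25 and 0.03. Adamts9 went from 42.8 to 83.9 CPM, 0.96 (0.91 to 1.03), higher in 9 of 11 clusters.

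The genes lower in aged fibroblast-like cells were Adamtsl3 and Mmp11. Adamtsl3 went from 161 to 75.7 CPM, a log2 ratio of -1.08 (-1.13 to -1.04), and was lower in 10 of 11 clusters and in both sexes (-1.21 and -1.03). Mmp11 went from 12.3 to 5.67 CPM, -0.99 (-1.28 to -0.95), also lower in 10 of 11 clusters and in both sexes (-0.86 and -1.17). Cells called female were 58.6% of the adult and 43.5% of the aged fibroblast-like cells with a sex call.

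Smaller shifts were uniform over the clusters for some members and split for others. Adamts2 was at 0.33 (0.30 to 0.36) and higher in 11 of 11 clusters, from 0.22 to 0.58. Adamts5 was at -0.43 (-0.45 to -0.42) and lower in 10 of 11, and Mmp2 was at 0.33 (0.31 to 0.35) and higher in 9 of 11. Mmp3 was at 0.02 (0.00 to 0.04), higher in 6 clusters and lower in 5. Adamts12 (0.01) was higher in 7 and lower in 4, and Timp3 (-0.26) higher in 4 and lower in 7.

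**Figure D5:**
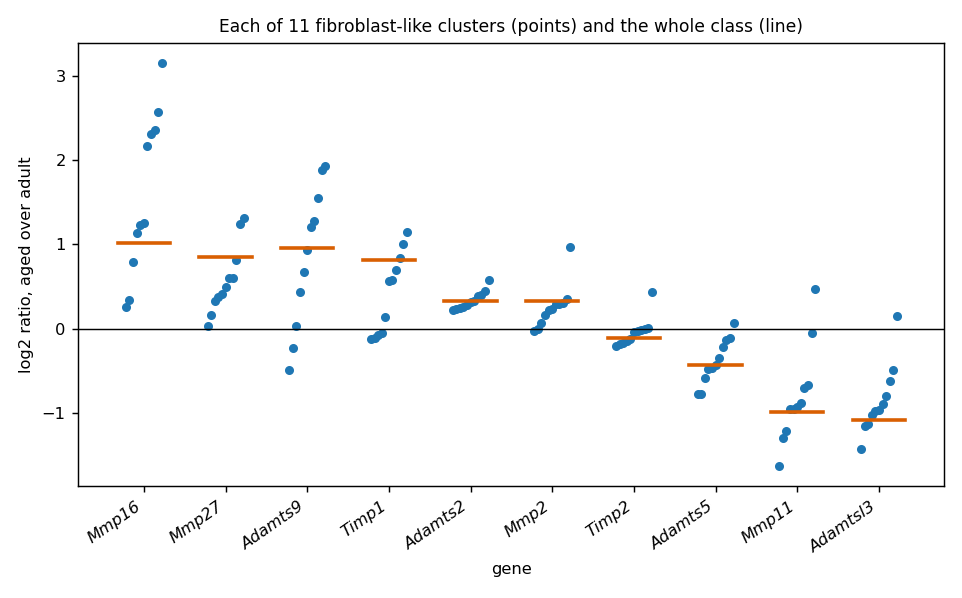
Log2 ratio of aged over adult for 10 genes in each of the 11 fibroblast-like clusters (points) and over the whole class (orange line), with a line at no difference. All points of Mmp16, Mmp27 and Adamts2 lie above 0, all but 1 point of Adamts5, Mmp11 and Adamtsl3 below, and Timp1 lies on both sides.

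Around these genes, 54 genes that activate, bind or accompany the proteases, or are cleaved by them, were followed as a list. In lymphatic cells 27 of them were measured, 4 higher (Plat, Plaur, Fn1 and Vegfc) and 4 lower (Pcsk5, Pcsk6, Tll1 and Reln) by 1.5-fold or more, against 8.31% and 9.21% of all genes, with a median log2 ratio of 0.10. Plat, the tissue plasminogen activator, went from 291 to 506 CPM, and Plaur, the receptor of urokinase, from 85.1 to 148 CPM. Several of these differed between the sexes or with the weight given to clusters: Plat was at 1.54 in female but -0.37 in male cells, and Pcsk5 at -2.56 and 1.11. With the clusters weighted equally Reln was at -0.03 and Pcsk6 at -0.12, beside the smaller share of the cluster led by Ccl21a in the aged library. In blood endothelial-like cells 7 of 25 were higher and 0 lower (4.57% and 4.96% of all genes, median 0.25), among them Plaur, from 53.4 to 130 CPM, and the fibroblast genes Col1a2 and Col3a1.

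In smooth muscle-like cells 0 of 33 were higher and 4 lower (Plau, Reck, Adam19 and Fbn1, median -0.07), near the 9.84% of all genes that were lower. Reck, a membrane inhibitor of MMPs including MMP14, went from 28.6 to 14.0 CPM on 83 and 25 UMIs. In fibroblast-like cells 5 of 40 were higher (Pcsk5, Adam12, Col1a1, Col1a2 and Col3a1) and 1 lower (Ccbe1), against 1.75% and 3.78% of all genes, with a median of 0.04. The substrates and processing enzymes of collagen thus did not share one size of shift: Col1a1 went from 810 to 2007 CPM, a log2 ratio of 1.31, Col3a1 from 1933 to 4703 CPM, 1.28, and Adamts2 was at 0.33 while Bmp1, the procollagen C-proteinase, was at 0.21.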

How the data were processed

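Droplet single-cell 3′ RNA (Chromium Next GEM v3.1, per the labels' protocols) was measured in 1 pooled library per age. In the deposited tables a gene's UMIs per 10000 UMIs of its cell, plus 1, stand as a natural log, as the values themselves show. They were made with Seurat 5.0.3 per the submitters' processing notes. These notes name GRCm39 and mm10 without a role, and for the aligner, the counting and the cell filters nothing is given in the sources used here. UMIs were recovered as whole numbers for 100% of values, within 0.01.

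Rows of the aged table carry no names and were named by the adult row order. Over the shared cells, 38 members with enough counts matched their own row (correlation 0.521 or more) above both next rows. Cells were clustered with 2000 variable genes without the members, 30 principal components, 15 neighbours and the Leiden method at a resolution of 1 (igraph 0.11.9, scikit-learn 1.9.0, numpy 2.4.6), giving 20 clusters that were named from fixed markers. Classes are therefore rebuilt and may differ from the authors' own. Scrublet marked 0 adult and 1 aged cell (0.0143%) as doublets, too few for this number of cells to rely on, so no doublets were removed; 2.85% of adult and 3.09% of aged cells held sex-linked UMIs of both sexes. Sex was called per cell from sex-linked UMIs.

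UMIs were summed per class and library and divided by the class total (CPM). Intervals are 95% exact Poisson limits for levels and exact conditional binomial limits for ratios, the latter without the added CPM of 1, so a ratio of a low gene can lie near or outside its interval. UMIs are counted near the 3′ end, so the level of a gene is compared between classes, while UMIs of different genes and family sums describe what was captured. Whether counting used strand is not stated. Timp1, Timp3 and Timp4 lie inside Syn1, Syn3 and Syn2 on the opposite strand in GENCODE M21, and reads of such pairs cannot be told apart without strand. The ratio step was run on simulated Poisson counts, the model that the intervals assume. The simulation holds no crowding of UMIs in single cells, so it cannot show how the intervals fare with it. Named genes are all measured members, and between ages those past 1.5-fold. Members, lists and alternatives were chosen with earlier results of these data known.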

Additional observations from a re-analysis of the deposited data

Results flagged for a closer look

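Adamts9 in lymphatic endothelial-like cells pointed in opposite directions in female and male cells, with log2 ratios of aged over adult of 1.12 (0.84 to 1.40) among female cells and -1.55 (-2.13 to -1.03) among male ones. The female level went from 369 to 803 CPM over 133 and 35 cells, and the male level from 737 to 251 CPM over 67 and 21 cells. In aged male cells 6 cells held its 32 UMIs, and 1 adult male cell held 117 of 347. In blood endothelial-like cells Adamts9 also differed in direction, with -0.31 (-0.43 to -0.19) among female and 0.64 (0.51 to 0.77) among male cells. In smooth muscle-like cells Mmp2 had 0.89 (0.46 to 1.35) among female and -0.56 (-0.95 to -0.18) among male cells, in a class where most of its UMIs lay in few cells: 18 of 368 adult cells held 59.0% and 13 of 264 aged cells 72.0%. The difference between sexes was not tested for any of them, since each sex is 1 pool per age.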

How the results depend on the processing

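No paired analysis was possible because each age is 1 library. The median log2 ratio of the members stayed above 0 under every alternative run in lymphatic and blood endothelial-like cells. In smooth muscle-like cells, where it was -0.067, it was above 0 in female cells (0.14), with all cells as deposited (0.041), with clusters weighted equally (0.023) and at a clustering resolution of 2 (0.096). In blood endothelial-like cells it was 0.081 in female and 0.58 in male cells alone. In fibroblast-like cells the median, 0.022, was -0.072 without the filter on low genes and -0.030 with the members kept for clustering. It was 0.062 with adult values from the copies in the aged table, 0.065 in female and 0.082 in male cells, 0.14 with clusters weighted equally, and 0.069 without clusters mostly of 1 library, an alternative chosen after seeing the data; the cause was not tested. Of 166 values of the 16 named ratios under the alternatives, 1 was reversed: Adamts9 in lymphatic cells was -1.55 in male cells. Keeping the cells as deposited, adult copies included, moved 12 of 16 beyond their counting intervals, equal weight of clusters 9, female cells alone 8, male cells alone 7 more, and adding 10 CPM 6; leaving out clusters mostly of 1 library moved 5 of the 6 fibroblast-like ones. The class with the highest level was the same for all 25 measured members when the members were kept for clustering. Thinning every cell to 3000 UMIs moved 107 of 118 shares of cells with a UMI. Every class had a median of 5330 UMIs or more, so lower shares follow from the thinning itself. Some measured members then fell below the 10% of the rule in both libraries. Among them were Mmp27 (2.44% and 5.01%) and Mmp16 (1.62% and 3.43%) in fibroblast-like cells, and Adamts18 (6.94% and 5.47%) in blood endothelial-like cells. Which members count as measured thus depends on depth. The alternative without called doublets was not run. Depth limits the lymphatic class most, with 494219 UMIs in 90 aged cells.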
